A study of Mus musculus with 9 samples.

Results

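The p53 target genes described here are 10 genes that the transcription factor p53 is known to switch on: Btg2, Perp, Pmaip1, Plk2, Ddit4l, Cdkn1a, Mdm2, Ccng1, Trp53inp1 and Gdf15. They were chosen by name, with earlier results of these data known, and matched by symbol to the gene identifiers of the count tables, in which 37990 genes were listed. All 10 were found, and all 10 were among the 14465 genes that passed the filter on low counts. The libraries held total RNA of mouse E14 embryonic stem cells, a line grown in serum with 1000 U/ml of leukaemia inhibitory factor, which keeps the cells undifferentiated. The cells carried a lentiviral pLKO.1 vector, stably integrated, expressing an shRNA, a short hairpin that targets Fam60a or Sin3a or has a scrambled sequence with no target, and each of these 3 groups had 3 libraries labelled as biological replicates. All cells, controls included, had been exposed to virus for 24 hours, left for 12 hours, selected with 2 ug/ml puromycin and passaged 3 times before harvest, so that transduction and selection are shared by all groups. The labels describe neither a second hairpin for a target nor a rescue. Sin3a holds together a corepressor complex with histone deacetylases, and Fam60a, named Sinhcaf in the annotation, is one of its subunits.

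p53, the product of Trp53, is held low in unstressed cells by the ubiquitin ligase Mdm2 and its partner Mdm4, and DNA damage or other stress releases it to bind paired decamer sites near its target genes. The targets act as brakes on the cell cycle, as promoters of cell death, as inhibitors of growth signalling and as feedback on p53 itself. Embryonic stem cells contain abundant p53 but have a short G1 phase, and in them the pathway is known for promoting differentiation as well as cell death. SIN3 and histone deacetylases have been described as partners through which p53 lowers transcription, and as regulators of the acetylation state of p53.

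The hairpins lowered their targets. Sinhcaf was at 13.4, 14.0 and 13.1 CPM (read counts relative to library size, scaled by the TMM method) in control replicates 1, 2 and 3 and at 5.59, 6.54 and 5.06 CPM under Fam60a knockdown, which left 42.5% of the control mean (adjusted p = 0.0280, edgeR's quasi-likelihood test with Benjamini-Hochberg adjustment, as for every adjusted p below unless another tool is named). That call was lost without any one library other than Sin3a knockdown replicate 3 (adjusted p of 0.051 to 0.133), without the filter on low counts (0.0539) and with a correction for GC content (0.0932). Sin3a was at 311, 281 and 268 CPM in the controls and at 131, 136 and 110 CPM under Sin3a knockdown, or 43.8% of the control mean (adjusted p = 0.00149). Under Fam60a knockdown Sin3a was at 227, 216 and 207 CPM, below all controls and at 75.6% of their mean, which did not pass in edgeR with all 9 libraries (adjusted p = 0.0964). It passed in DESeq2 (0.0177), with GC correction (0.0318) and without Sin3a knockdown replicate 3 (0.00466). Library totals ran from 5511453 to 7674887 reads, except for Sin3a knockdown replicate 3, which held 2607872 reads and 90 reads from the mitochondrial genome against 6268 to 7118 in the others. That library also deviated from the other 2 Sin3a knockdown libraries by GC content: the median log2 difference from the mean of those 2 was -1.23 for genes whose exons had at most 41.6% GC and 0.79 for genes of at least 58.1%. The 9 embryonic stem cell markers summed to 1427 to 1589 CPM in the controls, 1228 to 1410 CPM under Fam60a knockdown and 1424 to 1561 CPM under Sin3a knockdown. The 7 primitive endoderm markers summed to 681 to 1688, 1573 to 2291 and 1826 to 2931 CPM. Of the 7, 1 was called as higher, Gata6 under Sin3a knockdown (adjusted p = 0.029), where 3.91% of all tested genes were. All 7 had a log2 fold change above 0 in both knockdowns (46.6% and 49% of all tested genes). Their median was 0.98 under Fam60a and 1.18 under Sin3a knockdown, against -0.02 and -0.01 over all tested genes. By edgeR 2 and 5 had an unadjusted p under 0.05 (2273 and 3741 of 14465 tested genes). DESeq2 called 2 and 4 as higher (622 of 16349 and 1156 of 16809 genes). With the replicate number as a block 3 were called higher under Fam60a knockdown, against 3.41% of all tested genes, and 6 under Sin3a knockdown, against 6.33%. The 5 trophectoderm markers summed to 54.6 to 127.5, 90.3 to 153.5 and 68.8 to 323.7 CPM. Of the 4 tested, 0 were called by edgeR (1 at an unadjusted p under 0.05 and 1 by DESeq2 under Fam60a knockdown, 0 by both under Sin3a knockdown). With the block 2 were called as higher under Fam60a knockdown (3.41% of all tested genes) and 1 under Sin3a knockdown (6.33%). The 7 fibroblast markers summed to 31.0 to 72.9, 22.3 to 32.1 and 14.7 to 51.0 CPM, and 4 of them were too low to be tested. Dcn was at 0 under Fam60a knockdown and Postn, Dcn and Lum were at 0 under Sin3a knockdown. These 0 values tell little, since control means were 0.63 CPM for Postn, 0.19 for Dcn and 0.15 for Lum. Under Sin3a knockdown Thy1 fell from a mean of 24.6 to 6.86 CPM (adjusted p = 0.00816), where 6.28% of all tested genes were called lower. Col1a2 went the other way there, from a mean of 5.11 to 16.4 CPM, and was not called. The part of the primitive endoderm, trophectoderm and fibroblast markers in the results below was not tested.

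Promoter windows of RefSeq on GRCm38.p6, each 250 bases before to 50 bases after a start site, were at hand for 7 of the 10 genes, in 9 windows; Perp, Pmaip1 and Trp53inp1 had no entry. They were searched on both strands for the p53 half-site decamer, without mismatch, and for 2 half-sites side by side with at most 2 mismatches, which contain a half-site match where either decamer is exact. The half-site was in 8.36% of all 32851 windows of that length and the double site in 0.798%. The 4 stretches below show the windows that hold a double site (Cdkn1a and Ccng1) beside those of Btg2 and Plk2, which held neither. Each runs from position -250 to -31 relative to the start site in the direction of transcription, with motif matches in capitals.
Cdkn1a, upstream start site, window chr17:29090729-29091028, plus strand: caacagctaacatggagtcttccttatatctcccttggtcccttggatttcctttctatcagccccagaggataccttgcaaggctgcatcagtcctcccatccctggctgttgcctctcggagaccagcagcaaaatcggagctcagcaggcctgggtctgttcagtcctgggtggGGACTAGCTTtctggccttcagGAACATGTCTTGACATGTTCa
Ccng1, window chr11:40755237-40755536, minus strand: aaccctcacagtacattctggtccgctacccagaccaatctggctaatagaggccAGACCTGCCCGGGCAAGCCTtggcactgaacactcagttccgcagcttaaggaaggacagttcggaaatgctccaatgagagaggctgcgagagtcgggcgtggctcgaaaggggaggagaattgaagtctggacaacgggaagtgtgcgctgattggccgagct
Btg2, window chr1:134079106-134079405, minus strand: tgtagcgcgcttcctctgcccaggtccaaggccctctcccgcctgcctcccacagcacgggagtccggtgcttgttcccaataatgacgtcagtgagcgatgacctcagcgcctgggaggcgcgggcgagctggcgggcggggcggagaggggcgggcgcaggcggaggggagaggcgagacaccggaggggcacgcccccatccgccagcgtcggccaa
Plk2, window chr13:110394794-110395093, plus strand: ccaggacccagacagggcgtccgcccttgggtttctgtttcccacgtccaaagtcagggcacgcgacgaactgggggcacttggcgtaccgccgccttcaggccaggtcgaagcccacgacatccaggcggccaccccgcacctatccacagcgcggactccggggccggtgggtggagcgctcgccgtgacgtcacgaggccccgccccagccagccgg

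The Cdkn1a window held a double site at position -51 with 1 mismatch (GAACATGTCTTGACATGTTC) and a further half-site at -73 (GGACTAGCTT), and the window at the second, downstream Cdkn1a start site held none. The Ccng1 window held a double site at -195 with 1 mismatch (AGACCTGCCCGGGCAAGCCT). Mdm2 had a half-site at -186 (GAACTTGCCT) and Ddit4l one at -90 (GGGCTTGCCT), while the Gdf15 windows held neither motif. A match describes letters in these windows and shows no binding.

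The same 5 of the 10 genes rose in both knockdowns. Under Fam60a knockdown 5 of 10 rose (Btg2, Perp, Pmaip1, Plk2 and Ddit4l), where 1.49% of all tested genes were called higher, and 0 of 10 fell by edgeR, where 1.44% were called lower. Of the 10 genes, 5 had an unadjusted p under 0.05 in that comparison, where 2273 of 14465 tested genes did. DESeq2 called the same number of the 10 higher and 0 lower, where it called 622 and 552 of 16349 genes. Under Sin3a knockdown 7 of 10 rose, the same 5 with Mdm2 and Ccng1, where 3.91% of all tested genes were called higher, and Gdf15 fell, where 6.28% were called lower. The median log2 fold change of the 10 genes was 0.56 under Fam60a knockdown against -0.02 over all tested genes, and 0.84 against -0.01 under Sin3a knockdown. Every library of the Fam60a knockdown lay above all 3 controls for 8 of the 10 genes (16.2% of all tested genes did), and every library of the Sin3a knockdown for 7 (14.7%). The 10 genes, and the gene lists below, were chosen with earlier results of these data known. The values over all tested genes are therefore given for description and make no independent test of the set. The 2 comparisons share their 3 control libraries, so their values are given side by side and are not independent of each other. In bulk RNA, more cells that express a gene and more RNA per cell cannot be told apart.

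**Figure D1:**
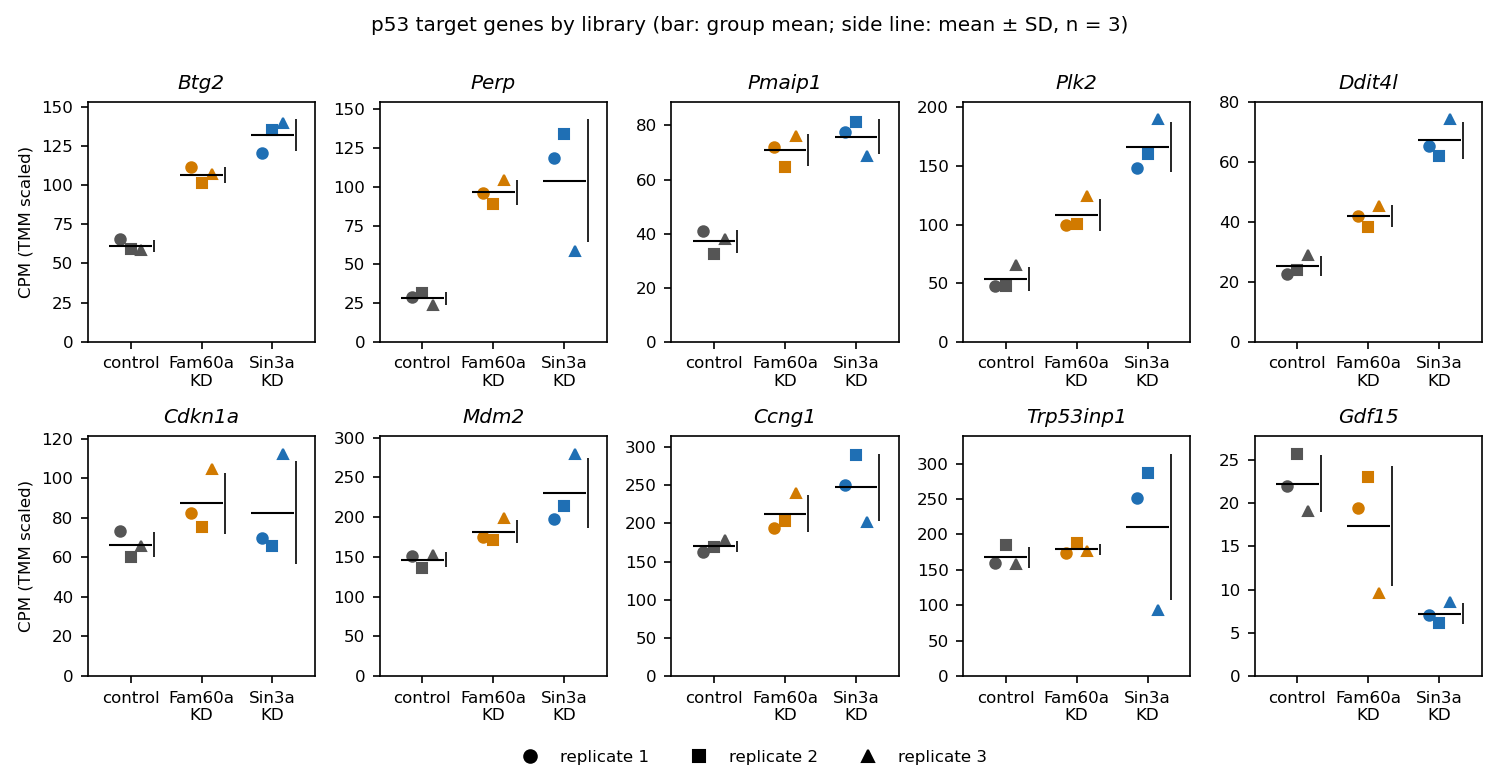
CPM of the 10 p53 target genes in each of the 9 libraries, with replicates 1, 2 and 3 as circles, squares and triangles, the group mean as a bar and the mean ± SD (n = 3) as a line beside it; every vertical axis starts at 0. Btg2, Perp, Pmaip1, Plk2 and Ddit4l lie above all controls in all 6 knockdown libraries, Gdf15 lies below all controls under Sin3a knockdown, and Sin3a knockdown replicate 3 stands apart for Perp, Trp53inp1 and Cdkn1a.

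Of the genes that restrain proliferation, Btg2 and Plk2 moved most. Btg2, on chromosome 1 (134075170 to 134079120, minus strand, GRCm38), encodes an antiproliferative protein that binds the CCR4-NOT deadenylase. It was at 65.5, 59.4 and 58.9 CPM in control replicates 1, 2 and 3, at 111, 101 and 107 CPM under Fam60a knockdown and at 120, 135 and 140 CPM under Sin3a knockdown. The 3 groups did not overlap, and each knockdown library was above its same-numbered control by 0.76 to 1.24 on the log2 scale. The log2 fold change was 0.80 ± 0.11 (SE, adjusted p = 0.0112) under Fam60a knockdown and 1.10 ± 0.12 (adjusted p = 0.00183) under Sin3a knockdown.

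Plk2, on chromosome 13 (110395046 to 110400844, plus strand), is a polo-like kinase of the G1 phase and of centriole duplication. It was at 47.6, 47.7 and 65.1 CPM in the controls, 99.5, 101 and 124 CPM under Fam60a knockdown and 148, 160.4 and 190 CPM under Sin3a knockdown. Replicate 3 was the highest library in all 3 groups, and the groups did not overlap. By edgeR the log2 fold change was 1.02 ± 0.17 (adjusted p = 0.0194) and 1.63 ± 0.17 (adjusted p = 0.00194).

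Cdkn1a encodes p21, the inhibitor of cyclin-dependent kinases through which p53 holds cells in G1, and it lies on chromosome 17 (29090976 to 29100727, plus strand). Its level was 73.3, 60.4 and 65.9 CPM in the controls, 82.3, 75.2 and 105 CPM under Fam60a knockdown and 70.0, 65.6 and 113 CPM under Sin3a knockdown. All 3 Fam60a knockdown libraries lay above all controls by a small margin, whereas Sin3a knockdown replicates 1 and 2 lay within the control range and replicate 3 was the highest of the 9 libraries. With all 9 libraries the change did not pass the test in either knockdown: the log2 fold change was 0.39 ± 0.22 (adjusted p = 0.48) and 0.30 ± 0.23 (adjusted p = 0.431). Each Fam60a knockdown library was above its same-numbered control, by 0.17, 0.31 and 0.67 log2 units, and with the replicate number as a block and without Sin3a knockdown replicate 3, a setting chosen after seeing the data, Cdkn1a passed under Fam60a knockdown (0.40, adjusted p = 0.00308) and not under Sin3a knockdown (0.10, adjusted p = 0.427). In the annotation the exons of Cdkn1a share 273 bases with a gene model on the opposite strand, and the file names carry a strand setting for the counting.

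Ccng1, on chromosome 11 (40748552 to 40755311, minus strand), encodes cyclin G1, which recruits a phosphatase to Mdm2. It was at 163, 169 and 178 CPM in the controls, 194, 204 and 240 CPM under Fam60a knockdown and 250, 290 and 202 CPM under Sin3a knockdown. Both knockdowns lay above the controls throughout, with Sin3a knockdown replicate 3 the lowest of its group. Against control the log2 fold change was 0.32 ± 0.15 (adjusted p = 0.329) under Fam60a knockdown and 0.54 ± 0.15 (adjusted p = 0.047) under Sin3a knockdown. The latter call did not hold with the replicate number as a block (adjusted p = 0.0622) or without any one library other than Sin3a knockdown replicate 3 (adjusted p of 0.0539 to 0.126). It was also lost without the filter on low counts (0.0501) and in a fit of only the 6 libraries compared (0.0835).

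Both genes of cell death rose in both knockdowns. Perp, on chromosome 10 (18845020 to 18857073, plus strand), encodes a membrane protein of desmosomes that is needed for p53-dependent death in some cell types, and it had the largest fold change of the 10 genes in both comparisons. It was at 29.0, 31.4 and 23.5 CPM in the controls, 96.1, 88.7 and 105 CPM under Fam60a knockdown and 118, 134 and 58.9 CPM under Sin3a knockdown. All 6 knockdown libraries were above all controls, and Sin3a knockdown replicate 3 was below the other libraries of its group, by a log2 difference of -1.09. The log2 fold change was 1.78 ± 0.28 (adjusted p = 0.0156) and 1.90 ± 0.28 (adjusted p = 0.00553).

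Pmaip1, on chromosome 18, encodes Noxa, a BH3-only protein that neutralises the survival factor Mcl1. It was at 41.1, 32.5 and 38.0 CPM in the controls, 72.1, 64.7 and 76.1 CPM under Fam60a knockdown and 77.6, 81.2 and 68.7 CPM under Sin3a knockdown. The 2 knockdowns overlapped each other and lay above the controls throughout. By edgeR the log2 fold change was 0.93 ± 0.15 (adjusted p = 0.0153) and 1.03 ± 0.15 (adjusted p = 0.00453).

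Ddit4l, on chromosome 3 (137621612 to 137628333, plus strand), encodes an inhibitor of mTORC1 signalling. It was at 22.8, 24.1 and 29.1 CPM in the controls, 42.1, 38.2 and 45.5 CPM under Fam60a knockdown and 65.6, 62.2 and 74.3 CPM under Sin3a knockdown. The 3 groups did not overlap, and the distance from the same-numbered control was 0.64 to 0.88 log2 units under Fam60a knockdown and 1.35 to 1.51 under Sin3a knockdown. Against control the log2 fold change was 0.73 ± 0.16 (adjusted p = 0.0475) and 1.41 ± 0.16 (adjusted p = 0.00224). The call under Fam60a knockdown was also lost with RLE scaling (adjusted p = 0.0535), without the filter on low counts (0.0671) and with a correction for GC content (0.0666).

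Of the 2 genes of feedback on p53, Mdm2 rose under Sin3a knockdown and Trp53inp1 did not pass the test in either. Mdm2, on chromosome 10 (117688875 to 117710758, minus strand), encodes the ligase that marks p53 for degradation. It was at 152, 135 and 153 CPM in the controls, 175, 171 and 198 CPM under Fam60a knockdown and 197, 214 and 280 CPM under Sin3a knockdown. Each knockdown library was above every control, and Sin3a knockdown replicate 3 was the highest library. The log2 fold change was 0.31 ± 0.14 (adjusted p = 0.348) and 0.65 ± 0.14 (adjusted p = 0.0246), and the latter call was lost without control replicate 1, 2 or 3 (adjusted p of 0.0846, 0.11 and 0.0662) and in a fit of only the 6 libraries compared (0.0783).

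Trp53inp1, on chromosome 4 (11156431 to 11174379, plus strand), encodes a nuclear protein that promotes the phosphorylation of p53 and takes part in autophagy. It was at 159, 185 and 159 CPM in the controls, 174, 188 and 176 CPM under Fam60a knockdown and 252, 287 and 93.8 CPM under Sin3a knockdown. Replicates 1 and 2 of the Sin3a knockdown were above all controls and replicate 3 was below them all. By edgeR the log2 fold change was 0.09 ± 0.33 (adjusted p = 0.979) and 0.34 ± 0.33 (adjusted p = 0.546). Without Sin3a knockdown replicate 3 it was 0.69 ± 0.09 (adjusted p = 0.00102) under Sin3a knockdown, and with a correction for GC content it was 0.51 (adjusted p = 0.00799).

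Gdf15, on chromosome 8 (70629393 to 70632456, minus strand), encodes a secreted stress cytokine of the TGF-beta family and was the 1 gene of the 10 that fell. It was at 22.0, 25.7 and 19.1 CPM in the controls, 19.5, 23.0 and 9.65 CPM under Fam60a knockdown and 7.01, 6.13 and 8.53 CPM under Sin3a knockdown, where the 3 libraries held 46, 33 and 21 reads of it. All Sin3a knockdown libraries were below all controls, and Fam60a knockdown replicate 3 stood below its other 2 libraries. Against control the log2 fold change was -0.36 ± 0.32 (adjusted p = 0.753) and -1.64 ± 0.34 (adjusted p = 0.0193). The call was lost without Sin3a knockdown replicate 1 or 2 (adjusted p of 0.0625 and 0.0687) and without control replicate 1 or 2 (0.0702 and 0.0827).

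**Figure D2:**
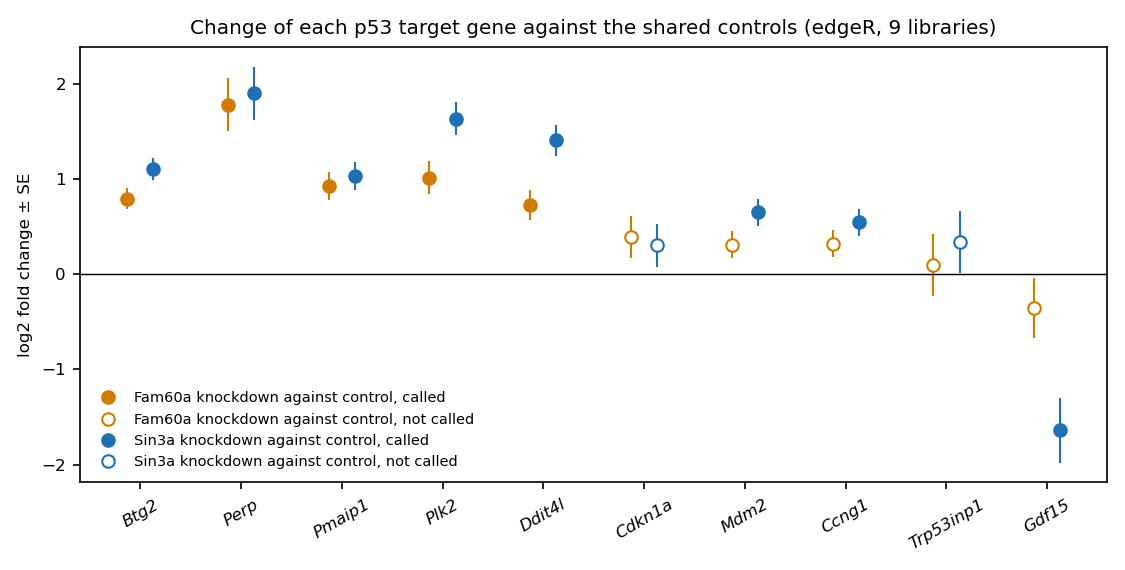
Log2 fold change ± SE of each gene against the shared controls, from the edgeR model of 9 libraries; filled points passed an adjusted p of 0.05 and open points did not. The largest rise is that of Perp (1.78 and 1.90), and Gdf15 is the 1 gene below 0 in both knockdowns.

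The calls under Fam60a knockdown depended on single libraries, for the 10 genes and over all genes. With all 9 libraries 215 of 14465 tested genes were called higher. Without Fam60a knockdown replicate 1 or 2, or control replicate 1 or 2, 0 of the 10 genes were called by edgeR (5 at an unadjusted p under 0.05 in each of these fits, and DESeq2 was not run on them). Of 14669 to 14763 tested genes, 43, 12, 6 and 16 were called higher in these fits, and 1864, 2025, 1615 and 1648 had an unadjusted p under 0.05. Without Fam60a knockdown replicate 3 the count was 1, Btg2, where 75 of 14764 tested genes were called higher. Without control replicate 3 or Sin3a knockdown replicate 1 or 2 it was 4, with Ddit4l lost (adjusted p of 0.071, 0.0812 and 0.0733). There 138 of 14693, 128 of 14773 and 161 of 14797 tested genes were called higher. The fold changes moved little: that of Btg2 lay between 0.77 and 0.87 and that of Perp between 1.79 and 1.89 in the 4 fits without a call. Without Sin3a knockdown replicate 3, which enters this comparison through the shared estimate of spread, 7 genes rose, with Mdm2 (0.32, adjusted p = 0.0230) and Ccng1 (0.33, adjusted p = 0.0363) added, where 9.16% of all tested genes were called higher, and 0 fell, where 7.77% were called lower. With the replicate number as a block the count stayed at 5, against 3.41% of all tested genes. Under Sin3a knockdown the block gave 6 risen genes, against 6.33% of all tested genes, and the fit without Sin3a knockdown replicate 3 gave 8, against 11% of all tested genes, with Gdf15 fallen (13.5% of all tested genes were called lower). Without control replicate 1 or 2, 5 genes were called under Sin3a knockdown: Btg2, Perp, Pmaip1, Plk2 and Ddit4l. In these fits 173 of 14754 and 178 of 14669 tested genes were called higher.

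Between the 2 knockdowns, 0 of the 10 genes differed at an adjusted p of 0.05 in edgeR's test of the difference, where 0.878% of all tested genes were higher and 2.18% lower after knockdown of Sin3a than after that of Fam60a. Of the 10 genes, 5 had an unadjusted p under 0.05, where 2624 of 14465 tested genes did. DESeq2 called 3: Plk2 (adjusted p = 0.0192) and Ddit4l (0.00118) as higher and Gdf15 (0.00869) as lower under Sin3a knockdown. Over all genes it called 542 of 14968 as higher and 754 as lower. In edgeR the difference was 0.62 ± 0.17 for Plk2 (adjusted p = 0.0903), 0.68 ± 0.16 for Ddit4l (adjusted p = 0.0557) and -1.28 ± 0.34 for Gdf15 (adjusted p = 0.0829). With the replicate number as a block Plk2 and Ddit4l passed (adjusted p of 0.0232 and 0.0322). Perp and Pmaip1 had differences of 0.12 ± 0.27 (adjusted p = 0.844) and 0.10 ± 0.14 (adjusted p = 0.747), and Btg2 had a difference of 0.31 ± 0.11 (adjusted p = 0.193). The value of Perp moved with Sin3a knockdown replicate 3: without it the difference was 0.38 (adjusted p = 0.0628), and without replicate 3 of every group Perp passed (0.45, adjusted p = 0.0145). Without Sin3a knockdown replicate 3, Ddit4l (adjusted p = 0.018), Trp53inp1 (0.00405) and Gdf15 (0.0294) differed. Without Fam60a knockdown replicate 3, Gdf15 alone did (log2 difference -1.57, adjusted p = 0.0327). With the block and without Sin3a knockdown replicate 3, a setting chosen after seeing the data, Perp (0.39, adjusted p = 0.0208), Btg2 (0.24, 0.0203) and Cdkn1a (-0.30, 0.0396) passed as well.

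Sin3a knockdown replicate 3 moved the 10 genes apart. Relative to the mean of replicates 1 and 2, Trp53inp1 differed by -1.52 log2 units in it, at an exon GC content of 38.8%, and Perp by -1.09 at 48%. Ccng1 differed by -0.41 at 40.8% and Pmaip1 by -0.21 at 42.1%. Cdkn1a was 0.73 higher at 54.4%, Mdm2 0.45 higher at 46.2%, and Gdf15 0.36 higher at 61.3%. Plk2 was 0.30, Ddit4l 0.22 and Btg2 0.13 higher, and for these 3 genes every Sin3a knockdown library lay above every Fam60a knockdown library, as it did for 11.6% of all tested genes.

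**Figure D3:**
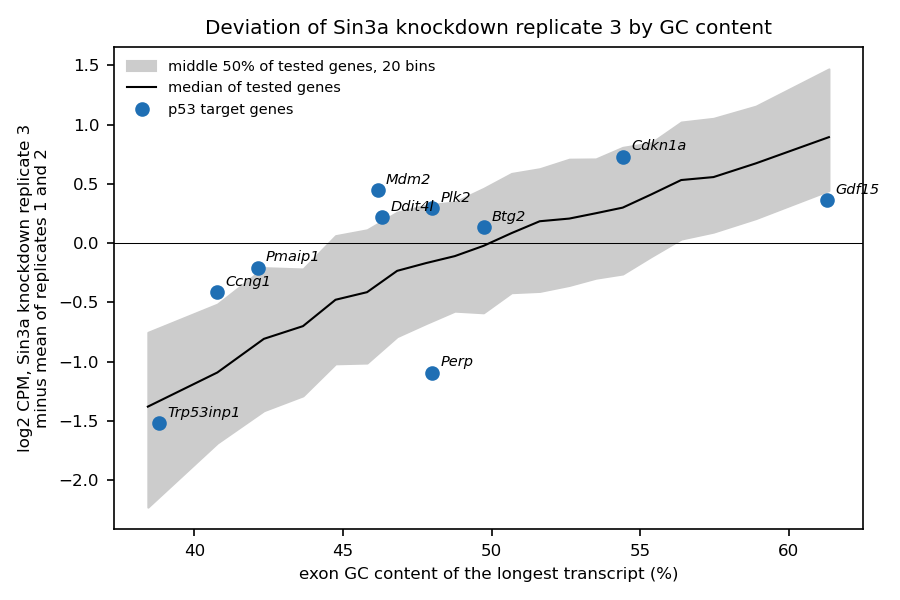
Log2 CPM of Sin3a knockdown replicate 3 minus the mean of replicates 1 and 2, against exon GC content in percent; the line is the median and the grey band the middle 50% of tested genes in 20 bins, and the points are the p53 target genes. Trp53inp1 (-1.52) lies at the low-GC end, where most genes were lower in that library. Perp (-1.09) and, by less, Gdf15 (0.36) lie below the band. Mdm2 (0.45) and Ccng1 (-0.41) lie above it, and Pmaip1 (-0.21) and Ddit4l (0.22) lie near its upper edge.

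Per length, the genes covered a wide range in the control cells. In CPM per kilobase of merged exons the order of levels was Ccng1 (48.4 ± 2.21, SD, n = 3), Mdm2 (28.8 ± 1.90), Trp53inp1 (25.9 ± 2.32), Btg2 (22.3 ± 1.34), Cdkn1a (18.7 ± 1.82), Perp (14.3 ± 2.06), Pmaip1 (13.6 ± 1.58), Gdf15 (12.0 ± 1.80), Plk2 (11.9 ± 2.25) and Ddit4l (8.69 ± 1.13). By merged exons Ccng1 stood above Mdm2 by more than their spread, whereas Mdm2 and Trp53inp1, Trp53inp1 and Btg2, and all neighbours from Perp to Ddit4l overlapped within 1 SD. With the length of the longest transcript in place of merged exons Mdm2 was at 46.6, Cdkn1a at 32.0 and Plk2 at 19.1, so the order depends on the transcript model: by that length Mdm2 lay close to Ccng1 (48.4) and Plk2 above Gdf15 (14.4), Perp (14.3) and Pmaip1 (13.6). Under Sin3a knockdown Perp reached 53.2 ± 20.3 and Btg2 48.0 ± 3.70 CPM per kilobase, next to Ccng1 at 70.4 ± 12.6, while Gdf15 was the lowest at 3.90 ± 0.66. Cdkn1a was at 24.6 ± 4.35 under Fam60a knockdown and 23.3 ± 7.30 under Sin3a knockdown, both within 1 SD of each other.

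Across the 9 libraries the genes did not all follow one course. The Pearson correlation of log2 CPM with the mean of the other 9 genes was 0.98 for Pmaip1, 0.96 for Btg2, 0.91 for Perp, 0.89 for Plk2, 0.86 for Ddit4l, 0.83 for Ccng1 and 0.74 for Mdm2. It was 0.38 for Cdkn1a, 0.12 for Trp53inp1 and -0.83 for Gdf15. Plk2 and Ddit4l formed the closest pair (r = 0.99), and their deviations from the group means within groups also went together (r = 0.90). Within groups Perp and Trp53inp1 (r = 0.95) and Cdkn1a and Mdm2 (0.93) went together more closely. Other pairs that were alike over the 9 libraries went apart within groups. Examples are Btg2 and Perp (0.88 over the libraries, -0.28 within groups) and Perp and Plk2 (0.80 and -0.56). These correlations describe 9 libraries that share the group differences and the pairing by number. Among 11649 protein-coding genes outside the lists, Trib1 (r = 0.99), Rhobtb1 (0.98), Trib2 (0.98), Slc35f5 (0.98) and Hipk3 (0.98) had the courses most like the mean of the 10 genes over the 9 libraries. Trib1, a pseudokinase that directs C/EBP-alpha to degradation, was at 63.7 ± 3.99 CPM in the controls, 106 ± 1.85 under Fam60a knockdown and 114 ± 8.81 under Sin3a knockdown.

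The p53 gene itself did not pass the test in either knockdown. Trp53 was at 170, 173 and 169 CPM in the controls, 169, 169 and 182 CPM under Fam60a knockdown (adjusted p = 0.99) and 156, 176 and 121 CPM under Sin3a knockdown (adjusted p = 0.466). Mdm4, which binds and inhibits p53, was at 89.6, 124 and 106 CPM in the controls and 111 ± 11.7 CPM under Fam60a knockdown, and at 106, 132 and 36.6 CPM in the Sin3a knockdown libraries, of which replicate 3 was the lowest. Of 25 tested p53 regulators (26 listed) 0 were called by edgeR under Fam60a knockdown, with 0 at an unadjusted p under 0.05 and 0 by DESeq2, and 2 rose under Sin3a knockdown, where 3.91% of all tested genes did. Without Sin3a knockdown replicate 3, 2 fell under Fam60a knockdown, against 7.77% of all tested genes, and 3 rose under Sin3a knockdown, against 11%. The median log2 fold changes of the 25 regulators were -0.06 and -0.03. With all 9 libraries the 2 that rose were Trp53bp1, a chromatin reader at DNA breaks (134 ± 14.1 to 219 ± 29.3 CPM, adjusted p = 0.0208), and Ing2, a reader of methylated histone H3 in SIN3 complexes (39.5 ± 4.03 to 95.3 ± 45.7 CPM, adjusted p = 0.0278). Ing2 was at 72.7, 65.4 and 148 CPM under Sin3a knockdown, and without replicate 3 its log2 fold change was 0.81, down from 1.26 (adjusted p = 0.00263). Both calls were lost without control replicate 1, 2 or 3 (adjusted p of 0.0542 to 0.0895 for Trp53bp1 and 0.0846 to 0.115 for Ing2), and that of Ing2 also without Fam60a knockdown replicate 1 (0.0506). A fit of only the 6 libraries compared lost both as well (0.0528 for Trp53bp1 and 0.0894 for Ing2).

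Other known p53 targets rose in part. Of 30 listed, 28 were tested, and 1 rose and 0 fell under Fam60a knockdown (1.49% and 1.44% of all tested genes). Under Sin3a knockdown 8 rose and 0 fell (3.91% and 6.28% of all tested genes). At an unadjusted p under 0.05 there were 7 and 15, where 2273 and 3741 of 14465 tested genes were. By DESeq2 3 and 13 rose, where 622 of 16349 and 1156 of 16809 genes did, and 0 fell. The median log2 fold change was 0.20 under Fam60a knockdown and 0.50 under Sin3a knockdown against -0.02 and -0.01 over all tested genes. With the replicate number as a block 1 and 10 rose (3.41% and 6.33% of all tested genes), and without Sin3a knockdown replicate 3 it was 8 and 15 (9.16% and 11%). The gene called under Fam60a knockdown was Tnfrsf10b, a death receptor (42.6 ± 3.25 to 70.6 ± 10.4 CPM, log2 fold change 0.73, adjusted p = 0.0379), named after its values were seen.

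The 6 other targets with the smallest adjusted p under Sin3a knockdown were Ak1, Ercc5, Apaf1, Sesn1, Ephx1 and Bbc3. The repair nuclease Ercc5 went from 65.8, 69.0 and 76.1 CPM in the controls to 125, 131 and 186 CPM (log2 fold change 1.06 ± 0.16, adjusted p = 0.00675). The apoptosome scaffold Apaf1 went from 94.2, 90.9 and 116 CPM to 187, 202 and 153 CPM (0.85 ± 0.16, adjusted p = 0.0119), and was at 142, 149.6 and 181 CPM under Fam60a knockdown, above all controls there as well. The BH3-only gene Bbc3, or Puma, went from 60.6, 55.8 and 50.2 CPM to 90.7, 91.0 and 149.9 CPM, with replicate 3 the highest (0.99 ± 0.21, adjusted p = 0.0204; without replicate 3, 0.71 and 0.00197). The adenylate kinase Ak1 rose from 70.3 ± 4.46 to 127 ± 16.2 CPM (adjusted p = 0.00608) and the epoxide hydrolase Ephx1 from 17.1 ± 3.79 to 38.0 ± 7.08 CPM (adjusted p = 0.0196). The sestrin gene Sesn1, an inhibitor of mTORC1, rose from 51.9 ± 5.24 to 80.9 ± 1.98 CPM (adjusted p = 0.0156). Leaving out control replicate 1 ended the calls of Apaf1 (adjusted p = 0.0504), Ephx1 (0.0756) and Bbc3 (0.0669). Leaving out control replicate 2 ended those of Apaf1 (0.0501), Sesn1 (0.0688) and Bbc3 (0.0849), leaving out control replicate 3 those of Ephx1 (0.0588) and Bbc3 (0.0733), and leaving out Sin3a knockdown replicate 2 that of Ephx1 (0.0556). A fit of only the 6 libraries compared ended the calls of Sesn1 (0.0558) and Bbc3 (0.0706).

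**Figure D4:**
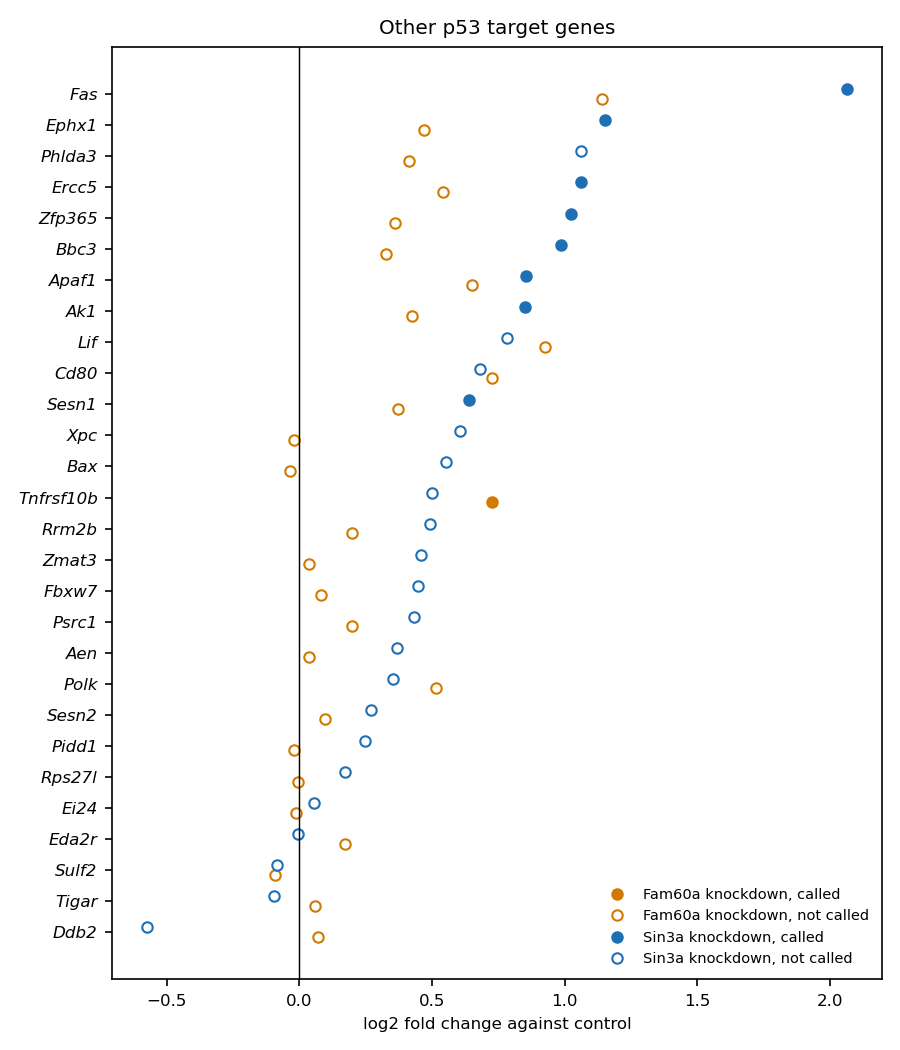
Log2 fold change against control of the 28 other p53 target genes tested, ordered by their change under Sin3a knockdown; filled points passed an adjusted p of 0.05. Under Sin3a knockdown 8 filled points lie to the right of 0 and 0 to the left, and under Fam60a knockdown 1 filled point lies to the right.

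Few relatives of the 10 genes passed the test. Of 12 tested paralogs (14 listed) 0 were called by edgeR under Fam60a knockdown, with 0 at an unadjusted p under 0.05 and 0 by DESeq2, and 1 rose and 1 fell under Sin3a knockdown, where 3.91% and 6.28% of all tested genes did. Without Sin3a knockdown replicate 3, 1 rose and 2 fell under Fam60a knockdown (9.16% and 7.77% of all tested genes), and 2 rose and 2 fell under Sin3a knockdown (11% and 13.5%). Ddit4, the relative of Ddit4l that inhibits mTORC1 under stress, was at 40.6, 34.4 and 46.6 CPM in the controls and 64.8, 70.2 and 166 CPM under Sin3a knockdown (adjusted p = 0.042), with replicate 3 far above the other libraries. Its log2 fold change was 1.29 and fell to 0.74 without that replicate (adjusted p = 0.00421), and the call was lost without any one control or Fam60a knockdown library (adjusted p of 0.0626 to 0.158). Tob2, an antiproliferative relative of Btg2, went the other way, from 57.2, 47.3 and 55.3 CPM to 29.0, 29.2 and 34.9 CPM (log2 fold change -0.79 ± 0.16, adjusted p = 0.0194), a call lost without any one control library or Sin3a knockdown replicate 1 or 2 (adjusted p of 0.0597 to 0.105). The calls of Ddit4 and Tob2 were also lost in a fit of only the 6 libraries compared (0.123 and 0.0669). The median log2 fold change of the paralogs was 0.10 under Fam60a knockdown and 0.00 under Sin3a knockdown.

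A further list held genes of the cell cycle that active p53 and p21 are known to lower. Of 20 tested, 0 were called by edgeR in either knockdown with all 9 libraries. In each, 1 had an unadjusted p under 0.05, where 2273 and 3741 of 14465 tested genes did. DESeq2 called 1 as lower under Fam60a knockdown, where it called 552 of 16349 genes lower, and 0 under Sin3a knockdown. Without Sin3a knockdown replicate 3, edgeR called 1 of the 20 as lower under Fam60a knockdown (7.77% of all tested genes were called lower). It called 2 of the 20 as higher under Sin3a knockdown (11% of all tested genes were called higher). The median log2 fold change of the 20 was -0.02 and 0.04 with all libraries. Of 13 genes of the integrated stress response, a pathway that can also switch on Gdf15, 0 were called by edgeR under Fam60a knockdown (0 at an unadjusted p under 0.05, 0 by DESeq2) and 1 fell under Sin3a knockdown, where 6.28% of all tested genes were called lower. Under Sin3a knockdown 5 of the 13 had an unadjusted p under 0.05, where 3741 of 14465 tested genes did. DESeq2 called 2 as lower, where it called 1359 of 16809 genes lower. Without Sin3a knockdown replicate 3 edgeR called 5 as lower, against 13.5% of all tested genes. The gene called by edgeR with all 9 libraries was Chac1, which degrades glutathione. Its level was 53.4, 50.6 and 49.0 CPM in the controls, 37.6, 35.8 and 9.80 CPM under Fam60a knockdown and 14.3, 13.7 and 6.50 CPM under Sin3a knockdown (log2 fold change -2.10 ± 0.48, adjusted p = 0.0263). As for Gdf15, its replicate 3 was the lowest library of the Fam60a knockdown and all Sin3a knockdown libraries were below all controls. The call was lost without any one control library or Sin3a knockdown replicate 1 or 2 (adjusted p of 0.0604 to 0.0838). The median log2 fold change of the 13 genes was -0.04 under Fam60a knockdown and -0.22 under Sin3a knockdown. Under Sin3a knockdown 4 of the 13 were above 0 (49% of all tested genes). Of these, Ddit3 (0.94, adjusted p = 0.135) and Atf3 (0.81, adjusted p = 0.549) were the highest. The part of this pathway in the change of Gdf15 was not tested.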

How the data were processed

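The series measured RNA of 9 libraries, 3 per group, as single reads of 50 bases from Illumina TruSeq stranded libraries, per the labels' protocols. The deposited tables give counts, whole numbers of reads per Ensembl gene without normalization. STAR 2.4.0j, Picard, and featureCounts of Subread are named in the submitters' processing notes. Duplicate reads had been removed before counting, per the file headers, which limits the counts of highly expressed genes. The genome build and annotation of the authors are not given in the sources used here. The control libraries were assigned by elimination, as those whose titles name neither target. The file headers name the Fam60a knockdown libraries differently from their titles. GENCODE M21 (GRCm38) supplied symbols, positions, exon lengths and GC content and matched 32937 of the 37990 genes.

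Counts were analysed with edgeR 4.0.16 (limma 3.58.1, R 4.3.3): filterByExpr, TMM scaling, robust quasi-likelihood F-tests in 1 model of the 3 groups over all 9 libraries, and Benjamini-Hochberg adjustment over 14465 genes with a threshold of 0.05. Fold changes are log2 coefficients, with the SE derived from the F statistic. Log2 CPM used a prior count of 2. "Rose", "fell" and "called" mean an adjusted p under 0.05. A count of 0 allows up to 3 reads, or 0.391 to 1.15 CPM depending on the library, which covers counting error only. Where nothing in the labels tells how the biological replicates were separated, p-values measure the spread between these libraries.

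The alternatives were RLE scaling, DESeq2 1.42.0, no filter on low counts, each library left out in turn, the replicate number as a block, a loess correction for exon GC content (span 0.3), both together, only the 6 libraries compared, and no replicate 3 in any group. For levels, RLE or no scaling factors and the longest transcript in place of merged exons were also tried. The block without Sin3a knockdown replicate 3 was added after seeing the data. The replicate numbers in the titles paired the samples. Across genes, departures of libraries from their group's mean correlated with r of 0.178 to 0.622 in 9 of 9 same-numbered pairs, against -0.448 to 0.113 between different numbers. Same-numbered pairs of Fam60a knockdown and control had r of 0.534 to 0.622, and those with a Sin3a knockdown library 0.178 to 0.308. Departures from a mean of 3 libraries sum to 0, so positive values at the same number push the others down. The labels do not say what a number shares, and genes are not independent replicates.

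The steps were tested on simulated data for the Sin3a knockdown against control: of 14243 genes fitted, 34% of 100 genes changed by a log2 of 1 and 73% of 100 changed by a log2 of 2 were recovered. The named genes were the 10 p53 targets, both hairpin targets, Trp53, Mdm4, up to 6 called genes with the smallest adjusted p from each list (other p53 targets, p53 regulators, paralogs, cell cycle genes lowered by p53, integrated stress response), and the 5 protein-coding genes of at least 5 CPM with the course most like the mean of the 10. The genes and lists were chosen with earlier results of these data known.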

Additional observations from a re-analysis of the deposited data

Results flagged for a closer look

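In the direct test between the knockdowns by edgeR, 4 named genes outside the 10 p53 targets differed. Sinhcaf was higher (log2 difference 1.43) and Sin3a lower (-0.78) after knockdown of Sin3a than after that of Fam60a. Trp53bp1 was higher by 0.69 (adjusted p = 0.0462), at 135 ± 19.0 CPM under Fam60a knockdown and 219 ± 29.3 under Sin3a knockdown. Tob2 was lower, with a log2 difference of -0.94 (adjusted p = 0.0212), at 59.3 ± 7.77 against 31.0 ± 3.39 CPM. The call of Sinhcaf was lost without Fam60a knockdown replicate 1 or 2 or Sin3a knockdown replicate 1 or 2 (adjusted p of 0.0574 to 0.0892), and that of Sin3a without Fam60a knockdown replicate 1 or 2 or Sin3a knockdown replicate 1 (0.0542 to 0.0678). From only the 6 libraries compared, the adjusted p was 0.114 for Sinhcaf, 0.0787 for Sin3a, 0.164 for Trp53bp1 and 0.125 for Tob2. The calls of Trp53bp1 and Tob2 were lost without any one library other than Sin3a knockdown replicate 3 (adjusted p of 0.0828 to 0.163 and 0.0539 to 0.105).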

How the results depend on the processing

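Of 180 fold changes of the 10 genes under the alternatives in each comparison, 142 under Fam60a knockdown and 156 under Sin3a knockdown kept direction and side of the threshold, and none reversed. These include genes that were not called to begin with. Under Fam60a knockdown 30 lost the call and 8 gained it, and under Sin3a knockdown 19 and 5 did. In the 18 alternatives Btg2 was called under Fam60a knockdown in 14, Perp, Pmaip1 and Plk2 in 13 each and Ddit4l in 7. Between the knockdowns 144 kept direction and side of the threshold, 31 passed the threshold that they had not passed with all 9 libraries, and 5 reversed direction. The number of the 10 genes called, 5 under Fam60a knockdown, ranged from 0 to 7 without single libraries and was 8 with the replicate block without Sin3a knockdown replicate 3. Under Sin3a knockdown it was 8 (7 risen, 1 fallen) and ranged from 5 to 9 without single libraries. From only the 6 libraries compared it was 6 there (5 risen, 1 fallen), where 229 of 14072 tested genes were called higher and 510 lower. Between the knockdowns it was 0 and ranged from 0 to 3 without single libraries, with 3 in DESeq2, 2 with the replicate block, 2 with GC correction, 5 with both, 6 without replicate 3 of every group and 9 with the replicate block without Sin3a knockdown replicate 3. The block changed no other call of the 10 genes than those given with the results.

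Over all genes, the Fam60a knockdown gave 423 calls, and 11 to 2495 without single libraries, 1174 in DESeq2, 887 with the replicate block, 733 with GC correction, 1699 with both, 1827 from the 6 libraries compared, 2450 without replicate 3 of every group and 5842 with the replicate block without Sin3a knockdown replicate 3. The Sin3a knockdown gave 1475, and 521 to 3606 without single libraries, 2515 in DESeq2, 3319 with replicate block and GC correction, 739 from 6 libraries, 4417 without replicate 3 of every group and 6975 with the block without Sin3a knockdown replicate 3. Between the knockdowns there were 443, and 48 to 2166 without single libraries, 1296 in DESeq2, 672 with the replicate block, 808 with GC correction, 1551 with both, 0 from 6 libraries, 2785 without replicate 3 of every group and 5321 with the block without Sin3a knockdown replicate 3. The cause of these changes was not tested.

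Reversals, given as log2 fold changes, were in values that had not passed the test. Without single libraries, Mdm4 ranged from -0.0285 to 0.196 and Trp53 from -0.009 to 0.0531 under Fam60a knockdown. Trp53bp1 ranged from -0.0481 to 0.128 there, and was -0.0321 without replicate 3 of every group and -0.0015 with replicate block and GC correction. Under Sin3a knockdown Mdm4 ranged from -0.521 to 0.153, with 0.170 without replicate 3 of every group and 0.169 (adjusted p = 0.0380) with the block without Sin3a knockdown replicate 3. Between the knockdowns Mdm4 ranged from -0.602 to 0.0850, with 0.107 and 0.0996 in those 2 fits. There the ranges were -0.0948 to 0.379 for Perp, -0.375 to 0.0812 for Cdkn1a and -0.0253 to 0.580 for Trp53inp1, each extreme of Perp and Trp53inp1 coming from leaving out Sin3a knockdown replicate 2 or 3. The depth of Sin3a knockdown replicate 3, 2607872 reads, limits its precision for low genes such as Gdf15.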

Other observations

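Trib2, Hipk3 and Slc35f5, which were among the 5 genes whose course over the 9 libraries was most like the mean of the p53 targets, were each called as higher in both knockdowns by edgeR. Trib2, a relative of Trib1, went from 11.8 ± 1.19 CPM in the controls to 31.5 ± 4.22 under Fam60a knockdown (adjusted p = 0.0119) and 42.1 ± 7.91 under Sin3a knockdown (adjusted p = 0.00223). Hipk3, a homeodomain-interacting kinase, went from 44.0 ± 0.45 to 75.1 ± 7.36 and 92.4 ± 3.65 CPM. The transporter gene Slc35f5 went from 53.9 ± 5.79 to 92.5 ± 7.44 and 97.8 ± 7.37 CPM. Their likeness was the reason for naming them, so these values are descriptions.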
